A study of Mus musculus with 2 samples.

Results

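The insulin-like growth factor (IGF) axis was followed in mouse embryos of the C57BL/6 background at the 4 to 8-cell stage. The genes were taken by symbol from the deposited table, and all 10 were found among its 23418 rows: Igf2r, Igf1r, Insr, Igf2, Irs1, Irs2, Grb10, Igf2bp1, Igf2bp2 and Igf2bp3. One library came from a pool of 20 embryos injected with an siRNA against Dnmt1 (siDnmt1), which maintains DNA methylation when cells divide. The other came from 20 pooled embryos that received a scrambled siRNA (scrambled). RNA captured on oligo-dT beads was amplified by 20 cycles of PCR and sequenced from both ends. With 1 library per group there is no replicate check on any difference, no p-value was computed, and the 95% intervals cover counting error alone. PCR copies were not marked by molecular identifiers and are not independent molecules. The genes were selected on a report of these same counts and on the ratio of siDnmt1 to scrambled, so their levels and ratios are descriptions.

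IGF2 and IGF1 act through the receptor tyrosine kinase IGF1R and, in part, through the insulin receptor, which pass the signal to adaptors such as IRS1 and IRS2 and on to lipid and MAP kinases. IGF2R, also called the cation-independent mannose 6-phosphate receptor, has no kinase: it takes up IGF2 for breakdown and carries newly made lysosomal enzymes to the endosome. Igf2r and Grb10 are imprinted and expressed mostly from the maternal allele in many mouse tissues, and Igf2 mostly from the paternal allele, under control regions whose DNA methylation differs between the alleles. The Igf2bp proteins bind mRNAs, among them that of Igf2, and affect their stability and translation. The counts do not separate the parental alleles, and DNA methylation was not measured here.

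The promoters are shown because CG pairs, the sites at which Dnmt1 keeps methylation, are spread unevenly over them. Of the 10 genes, 8 had at least 1 window in the RefSeq promoter table on GRCm38.p6, and Insr and Igf2bp1 had none. The 250 bases before the start are given 5′ to 3′ for Igf2r and Igf2bp2, whose counts in siDnmt1 exceeded 2-fold those in scrambled, and for Airn, the noncoding RNA transcribed antisense to Igf2r from within it. Capitals mark CG pairs. The windows are chr17:12769707-12769956 on the minus strand (Igf2r), chr16:22163300-22163549 on the minus strand (Igf2bp2) and chr17:12741061-12741310 on the plus strand (Airn).
Igf2r: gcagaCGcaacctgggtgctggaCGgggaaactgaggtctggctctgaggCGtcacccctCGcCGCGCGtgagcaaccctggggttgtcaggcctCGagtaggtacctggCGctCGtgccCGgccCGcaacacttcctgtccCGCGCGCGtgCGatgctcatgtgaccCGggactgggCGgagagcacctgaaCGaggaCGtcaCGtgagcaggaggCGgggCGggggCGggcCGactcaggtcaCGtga
Igf2bp2: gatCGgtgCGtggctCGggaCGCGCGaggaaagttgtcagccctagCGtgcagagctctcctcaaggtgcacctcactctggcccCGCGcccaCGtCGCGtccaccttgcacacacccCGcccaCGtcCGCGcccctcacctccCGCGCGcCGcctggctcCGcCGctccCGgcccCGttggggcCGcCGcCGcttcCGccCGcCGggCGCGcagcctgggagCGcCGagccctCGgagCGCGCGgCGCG
Airn: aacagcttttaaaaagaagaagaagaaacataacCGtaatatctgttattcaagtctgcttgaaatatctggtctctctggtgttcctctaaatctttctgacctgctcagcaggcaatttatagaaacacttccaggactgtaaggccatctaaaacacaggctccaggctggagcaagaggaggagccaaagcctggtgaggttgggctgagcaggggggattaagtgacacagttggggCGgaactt

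The Igf2r window held 27 CG pairs, against a median of 6 over all 32851 windows of the same 250 bases, and 8.56% of windows held as many or more. The Igf2bp2 window held 40, a number reached by 1.31% of windows, and the Airn window held 2. The windows stop at the start, so CG pairs after it were not counted, for Airn or for any other gene. Among the other genes, the windows of Igf1r, Irs1, Irs2 and Igf2bp3 held 42, 28, 34 and 21 CG pairs. Grb10 had 2 windows with 40 and 8, and Igf2 had 4 with 1, 10, 22 and 6. Whether these CG pairs carry methylation was not measured, and a link between their number and the ratios was not tested. The letters CACGTG, which read the same on both strands and form an E-box that several basic helix-loop-helix factors bind, occurred 2 times in the Igf2r window, where they show as caCGtg, and 1 time each in the windows of Irs1, Irs2 and Igf2bp3. At least 1 such match was found in 6.02% of all windows and at least 2 in 0.429%. Among the genes of lysosomal hydrolases listed for this comparison, 9 of 28 with a window held the letters in at least 1 window. This share counts genes, which can have several windows, whereas the 6.02% counts windows, so the shares are not in like units. These matches are descriptions of the letters and were not tested for binding.

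The libraries held 12236615 (siDnmt1) and 11675483 (scrambled) counts. Rn45s, the ribosomal RNA precursor, took 37.3% and 29.9% of them, which left 7670163 and 8187941 counts. Dnmt1, the target of the siRNA, had 687 counts in siDnmt1 and 847 in scrambled and was 1.23-fold lower (1.11 to 1.37). Log2 ratios below are log2((siDnmt1 + 5)/(scrambled + 5)), and a gene was compared where its mean over both libraries reached 20 counts. Of the 7315 genes compared, the siDnmt1 count was at least 2-fold higher for 12.5% and at least 2-fold lower for 16.7%. The log2 ratio of Dnmt1 was -0.30, and 38.3% of the genes compared had a ratio as low or lower. The share at least 2-fold lower was 35.3% for transcripts under 2000 nt and 8.82% for those of 5000 nt or more, so a transcript's length moved with its ratio. Of the markers of other cells, 8 of 8 for sperm and 9 of 12 for cumulus and granulosa cells, Fshr, Foxl2 and Cyp19a1 among them, had 0 counts in both libraries. The summed cumulus markers were 55 and 59 counts, mostly from Amhr2 with 45 and 56, with Star at 6 and 0 and Kitl at 4 and 3. Of the blood cell markers, 5 of 6 had 0 counts and Ptprc had 16 and 6. Of the oocyte and embryo markers, 11 of 12 were detected. Their summed counts were 1924 and 2773, mostly from Pou5f1 with 1489 and 2152. Among the others, Zp1 had 90 and 43, Zp2 39 and 20 and Gdf9 27 and 24. Lower in siDnmt1 were Zp3 with 13 and 42, Dppa3 with 70 and 194 and Nlrp5 with 189 and 257. Bmp15 had 3 and 19, Ooep 0 and 15, Mos 3 and 5 and Oosp1 1 and 2. The embryos were processed whole, so fewer cells carrying a transcript and less of it per cell cannot be told apart.

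Of the 10 genes, 6 had a mean of at least 20 counts and were compared: Igf2r, Insr, Grb10, Igf2bp1, Igf2bp2 and Igf2bp3. Igf2r, Insr and Igf2bp2 were at least 2-fold higher in siDnmt1, 0 were at least 2-fold lower, and Grb10, Igf2bp1 and Igf2bp3 lay within 1.29-fold. Over all genes compared, 12.5% were as far apart in the upward direction, and these values were in view when the genes were chosen. Insr passed the filter through the library in which it was high (50 counts against 12), and Igf1r, with 1 against 18, did not pass, so the filter bears on this count. The other 4 genes were rare or undetected, with at most 18 counts in either library.

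**Figure D1:**
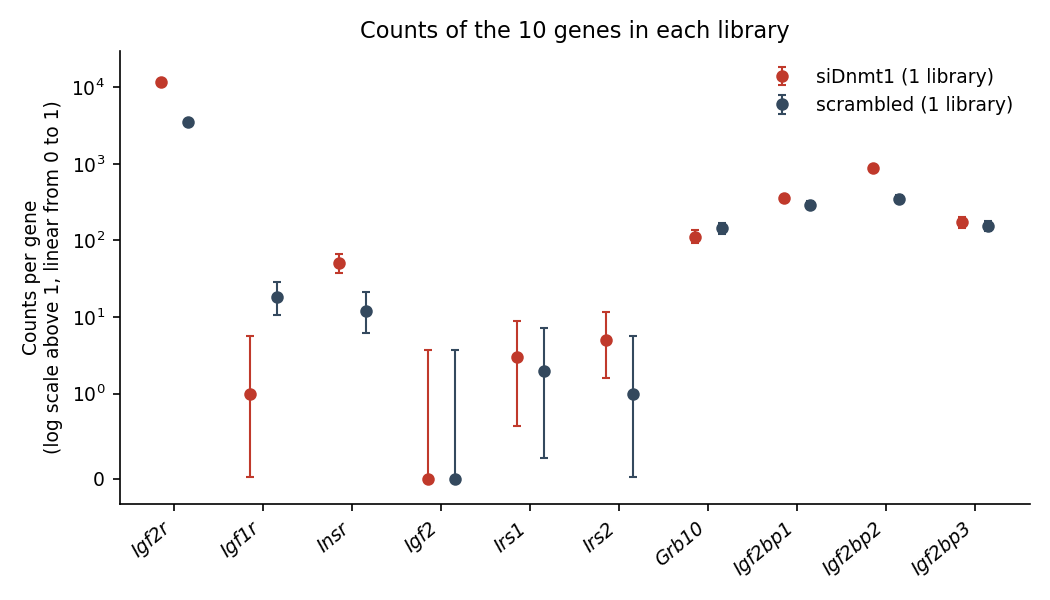
Counts of each of the 10 genes in the siDnmt1 (red) and scrambled (dark) library, 1 library per group, on an axis that is linear from 0 to 1 and logarithmic above. Bars are exact 95% Poisson intervals of counting error. Igf2r stands highest in both libraries, with 11698 and 3488 counts, and Igf1r and Insr lie on opposite sides.

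Among the receptors, Igf2r was by far the most abundant. It had 11698 counts in siDnmt1 and 3488 in scrambled, 3.35-fold higher in siDnmt1 (3.23 to 3.48). With Rn45s left out it held 0.153% of the counts in siDnmt1 and 0.0426% in scrambled, and its place in the order of genes by count was 71 and 265. Its log2 ratio of 1.74 was reached or exceeded by 3.66% of all genes compared. Ratios of well-counted genes spread less, and of the 985 genes whose mean reached 1000 counts, 4 had a higher ratio than Igf2r and 7.82% were at least 2-fold higher. Its transcript is long, at 8887 nt, and the median log2 ratio of the 529 genes of 8000 nt or more was 0.21. Of these genes, 15 had a higher ratio than Igf2r, and its own log2 ratio was 1.54 once a lowess curve of ratio on length had been subtracted (called the length trend below).

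**Figure D2:**
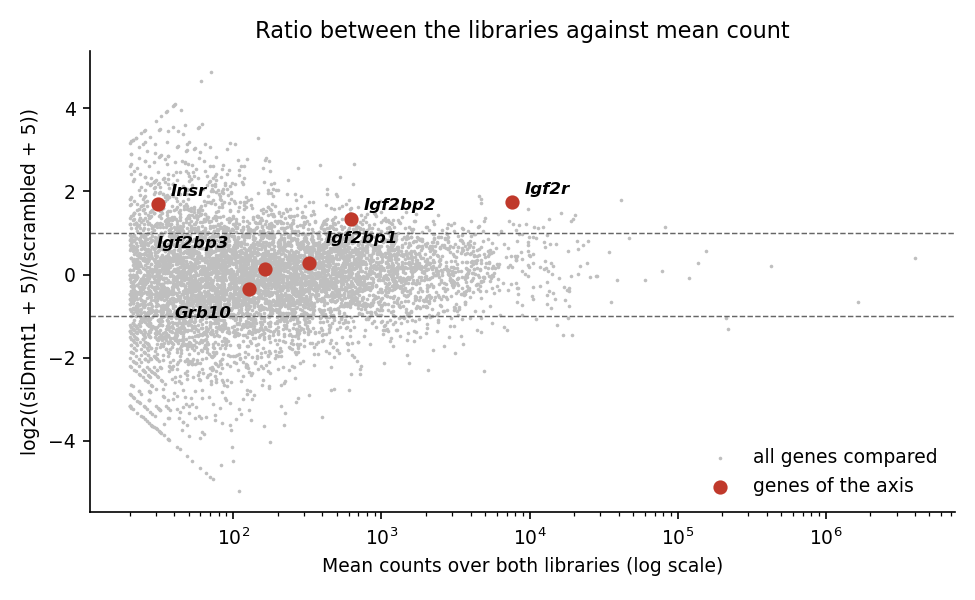
Log2 ratio of siDnmt1 over scrambled against the mean count of both libraries (log axis) for the 7315 genes compared (grey) and the 6 genes of the axis among them (red). Dashed lines mark 2-fold. Igf2r lies at 1.74 near the upper edge of the genes of its abundance, while Igf2bp1, Igf2bp3 and Grb10 lie between the lines.

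The genes closest to Igf2r in both libraries, by Euclidean distance over log2(count + 5), were Tmppe, Cad and Mfsd7c, and the measure rests on these 2 libraries alone. Tmppe had 10356 counts in siDnmt1 and 4251 in scrambled (distance 0.335). Cad, which encodes the enzyme that starts pyrimidine synthesis, had 10730 and 4625 (distance 0.425). Mfsd7c had 8656 and 4183 (distance 0.507). All 3 had a smaller fold than Igf2r, at 2.44, 2.32 and 2.07.

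The signalling receptors were scarce. Insr, the insulin receptor, had 50 counts in siDnmt1 and 12 in scrambled, 4.17-fold higher with a wide interval (2.19 to 8.60). Its log2 ratio was 1.69, or 1.49 after the length trend was removed. Igf1r, the main receptor of IGF1 and IGF2, had 1 count in siDnmt1 and 18 in scrambled, which is 18 times lower (counting interval 2.84 to 750). Insr and Igf1r thus lay in opposite directions, and both have long transcripts (9355 and 11409 nt). The count of Insr over that of Igf1r, which does not depend on how the libraries are scaled, was 50 in siDnmt1 and 0.667 in scrambled. The exact conditional estimate of the factor between them was 70.0 (9.40 to 3184), and it rests on the single Igf1r count. Other factors between such ratios below are estimates of the same kind.

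Levels of different genes were set side by side as counts per 1000 nt of transcript, scaled to 1000000 counts outside Rn45s (called length-scaled levels). On this scale Igf2r was at 172 (169 to 175) in siDnmt1 and 47.9 (46.4 to 49.6) in scrambled. Insr was at 0.697 (0.517 to 0.919) and 0.157 (0.0809 to 0.274), and Igf1r at 0.0114 (0.000289 to 0.0637) and 0.193 (0.114 to 0.305). The intervals of Insr and Igf1r overlapped in scrambled and did not overlap in siDnmt1. Igf2r was thus far above both signalling receptors in each library.

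The ligand was not detected. Igf2 had 0 counts in both libraries, for which the exact 95% upper bound is 3.69 counts in each, or a length-scaled level of 0.102 in siDnmt1 and 0.0954 in scrambled. H19, the noncoding RNA that shares control elements with Igf2 and is expressed from the maternal allele, had 0 counts in siDnmt1 and 2 in scrambled. Of the 15 other genes listed (ligands, binding proteins, their proteases and the insulin receptor-related receptor Insrr), 8 had 0 counts in both libraries, including Igf1, Ins1 and Ins2, and 0 reached a mean of 20. Htra1, a secreted protease that cuts IGF binding proteins, had 12 and 3 counts, and Igfbp3 had 6 and 10.

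The insulin receptor substrates were near the limit of detection. Irs1 had 3 counts in siDnmt1 and 2 in scrambled, and Irs2 had 5 and 1. The interval of both ratios included equality (0.172 to 18 and 0.559 to 236). Grb10, an adaptor that binds the activated receptors and dampens their signal, was better counted, with 112 in siDnmt1 and 144 in scrambled. It was 1.29-fold lower, with an interval that just includes equality (0.997 to 1.66), and its log2 ratio stayed between -0.51 and -0.26 over the settings tried. Igf2r and Grb10, both imprinted genes, thus had log2 ratios of 1.74 and -0.35.

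The Igf2bp family was detected in full, and the ratio between the libraries was unlike among its members. Igf2bp2 had 894 counts in siDnmt1 and 350 in scrambled, 2.55-fold higher (2.25 to 2.90), with a log2 ratio of 1.34. Igf2bp1 had 355 and 294, 1.21-fold higher (1.03 to 1.41), and Igf2bp3 had 172 and 155, 1.11-fold higher, where the interval spans equality (0.888 to 1.39). The larger count of the family in siDnmt1 was mostly that of Igf2bp2. Its share of the counts of all 3 genes was 62.9% (60.3 to 65.4, Clopper-Pearson) of 1421 in siDnmt1 and 43.8% (40.3 to 47.3) of 799 in scrambled. Igf2bp1 held 25.0% and 36.8% and Igf2bp3 12.1% and 19.4%.

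**Figure D3:**
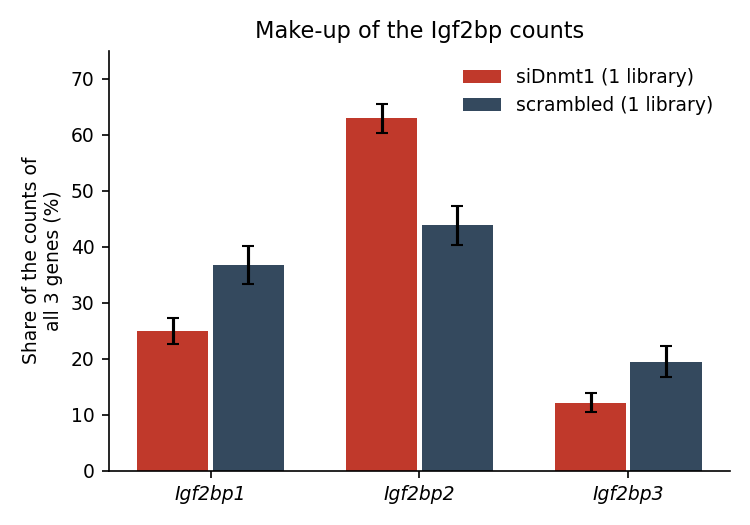
Share of the summed counts of Igf2bp1, Igf2bp2 and Igf2bp3 held by each gene in the siDnmt1 (red) and scrambled (dark) library, with Clopper-Pearson 95% intervals of counting error. Igf2bp2 holds 62.9% in siDnmt1 and 43.8% in scrambled, and both other genes hold smaller shares in siDnmt1.

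Ratios within a library removed the scaling. Igf2bp2 over Igf2bp1 was 2.52 in siDnmt1 and 1.19 in scrambled, a 2.11-fold difference (1.73 to 2.59), and Igf2bp2 over Igf2bp3 was 5.20 and 2.26, a 2.30-fold difference (1.78 to 2.98). Igf2bp1 over Igf2bp3 was 2.06 and 1.90, a difference whose interval includes equality (0.826 to 1.43). In length-scaled levels, Igf2bp2 was at 29.9 (28.0 to 31.9) in siDnmt1 and 11.0 (9.84 to 12.2) in scrambled. Igf2bp1 was at 5.52 and 4.29 and Igf2bp3 at 5.16 and 4.36, and the intervals of this pair overlapped in both libraries. In this order by level, Igf2r came first and Igf2bp2 second in both libraries, followed by Igf2bp1 and Igf2bp3 and then by Grb10 at 2.89 and 3.47. In scrambled the interval of Grb10 (2.93 to 4.09) overlapped those of Igf2bp1 (3.81 to 4.80) and Igf2bp3 (3.70 to 5.10). In siDnmt1, Grb10 (2.38 to 3.47) lay below both.

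**Figure D4:**
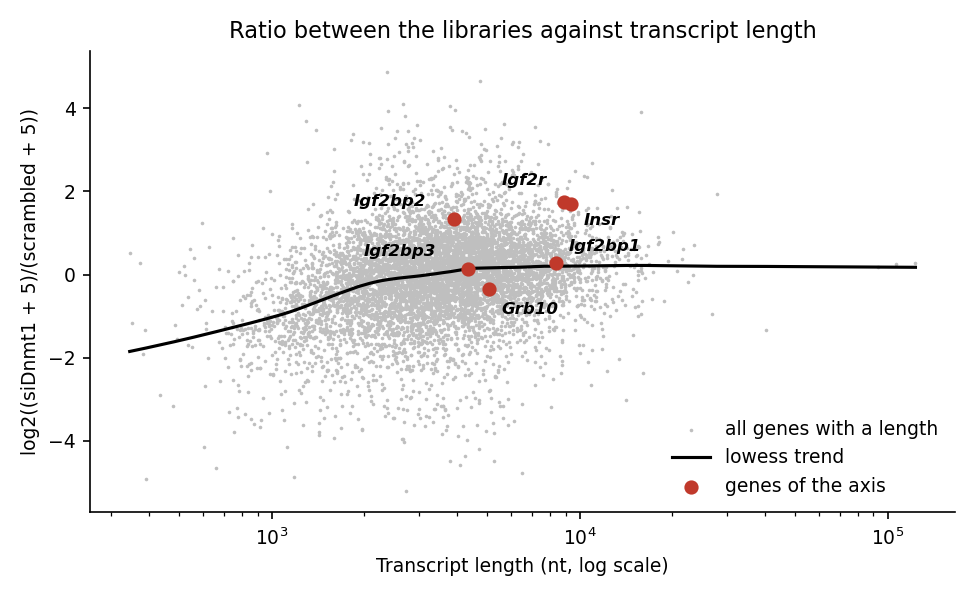
Log2 ratio of siDnmt1 over scrambled against transcript length (log axis) for all genes compared that have a length (grey), with the lowess trend (black line) and the genes of the axis (red). The trend climbs with length over most of the range, from 0.08 at Igf2bp2 (3899 nt) to 0.20 at Igf2r and Insr, which lie well above it.

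In the annotation used, the spliced Igf2r transcript shared no sequence with other genes. None of the 8857 distinct 31-base words of the Igf2r transcript occurred in a transcript of another gene (0 words), and 0 of its 9308 exonic bases overlapped an exon on the other strand. Airn had 0 counts in both libraries, although unspliced Airn RNA, which runs across the start of Igf2r, is not covered by this check. The transcripts of Igf2bp1, Igf2bp2 and Igf2bp3 shared 0 such words with one another or with the other genes of the axis. Whether the counting used strand is not stated in the sources, so reads of a gene and of a partner on the other strand cannot be told apart. Of the exonic bases of Igf2bp3, 18.7% overlap exons of Malsu1 on the other strand, a gene with 6 and 16 counts, and of those of Irs1, 30.9% overlap the antisense gene Gm9747. Igf2 shares 3596 of its 5723 exonic bases with Gm49394 on the same strand. Whether the deposited counts were made with an annotation that holds Gm49394 is not stated. It is thus unknown whether this overlap bears on the Igf2 count of 0.

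The genes beside the imprinted members gave few counts. Around Igf2r, Slc22a2 and Mas1 had 0 counts in both libraries, and Slc22a3 and Plg had 1 in siDnmt1 and 0 in scrambled. Slc22a2 and Slc22a3 are imprinted in the placenta with Igf2r. Of the genes further along, Tcp1, a subunit of the CCT chaperonin, had 407 and 584 counts and was 1.43-fold lower (1.26 to 1.63), Mrpl18 had 25 and 6 (4.17-fold higher, 1.67 to 12.4), and Acat2 had 9 and 12. Of the 15 neighbours listed, 1 (Tcp1) was compared. Mrpl18, with a mean of 15.5 counts, and the others stayed below 20, so no direction is read from them. Beside Grb10, Ddc had 0 counts in both libraries, Cobl had 6 and 12 and Ikzf1 had 4 and 11, and beside Igf2, Th had 0 and 1.

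Genes that act with Igf2r in lysosomal transport were taken from a list of 18. Of these, 17 were compared, 1 (5.88%) reached 2-fold higher, against 12.5% of all genes, and 0 reached 2-fold lower, against 16.7%, with a median log2 ratio of -0.44 against -0.02 over all genes. With the libraries set to equal total counts, 3 lay past 2-fold. M6pr, the other mannose 6-phosphate receptor, had 1477 and 1131 counts (1.31-fold higher, 1.21 to 1.41). The count of Igf2r over that of M6pr was 7.92 in siDnmt1 and 3.08 in scrambled, so this ratio differed 2.57-fold (2.35 to 2.80). In length-scaled levels, Igf2r was at 2.26 times M6pr in siDnmt1 and 0.881 times in scrambled. Nagpa, which uncovers the mannose 6-phosphate tag, had 84 and 28 counts (3.0-fold higher, 1.94 to 4.78). Plin3, named as a factor for the return of these receptors to the Golgi, had 195 and 380, and Ap1s1, of the AP-1 coat, had 84 and 167. The log2 ratio of Ap1s1, which has a short transcript (1353 nt), was -0.95, and -0.25 after the length trend was removed.

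Lysosomal hydrolases, the cargo of these receptors, had shares near those of all genes. Of 36 listed, 22 were compared, 4 (18.2%) reached 2-fold higher, against 12.5% of all genes, 3 (13.6%) reached 2-fold lower, against 16.7%, and the median was -0.02. Man2b1, lysosomal alpha-mannosidase, had 92 counts in siDnmt1 and 27 in scrambled (3.41-fold higher). Gm2a, with 893 and 364, and Glb1, beta-galactosidase, with 125 and 57, were also higher. Ctsz, a cathepsin, had 192 and 771 (4.02-fold lower, 3.42 to 4.73), Gusb, beta-glucuronidase, 9 and 36, and Galc, galactosylceramidase, 9 and 35. The short Ctsz transcript (1441 nt) had a log2 ratio of -1.98, and of -1.35 after the length trend was removed.

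Downstream of the receptors, 12 of 17 other adaptors and phosphatases were compared, with 2 (16.7%) at least 2-fold higher, against 12.5% of all genes, 1 (8.33%) at least 2-fold lower, against 16.7%, and a median log2 ratio of 0.51, or 0.33 after the length trend was removed. Cbl, a ubiquitin ligase that sends activated receptors for breakdown, had 1557 and 510 counts (3.05-fold higher, 2.76 to 3.38). Sos2, an exchange factor for Ras, had 113 and 47 (2.40-fold higher). Shc1, an adaptor, had 47 and 124 (2.64-fold lower, 1.87 to 3.77), and Ptpn1, a phosphatase of the insulin receptor, 270 and 528 (1.96-fold lower).

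In the PI3 kinase, Akt and mTOR branch, 31 of 33 genes were compared, 5 (16.1%) reached 2-fold higher, against 12.5% of all genes, and 3 (9.68%) reached 2-fold lower, against 16.7%, with a median of 0.14. Pdpk1, the kinase that activates Akt, had 1523 and 446 counts (3.41-fold higher, 3.07 to 3.80). Foxo3, a transcription factor that Akt holds out of the nucleus, had 5662 and 2332, Akt1 270 and 128, and Phlpp1, a phosphatase of Akt, 49 and 15. The lower genes were Gsk3a, with 34 and 128 (3.76-fold lower, 2.56 to 5.67), Pik3r2, a regulatory subunit of PI3 kinase, with 36 and 94, and Mapkap1, a subunit of mTOR complex 2, with 169 and 380.

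In the Ras and MAP kinase branch, 16 of 17 genes were compared, with 2 (12.5%) reaching 2-fold higher and 3 (18.8%) reaching 2-fold lower, close to the 12.5% and 16.7% of all genes, and a median of 0.03. Dusp6, a phosphatase of MAP kinases, had 60 and 23 counts (2.61-fold higher, 1.59 to 4.42). Map2k2 had 93 and 210 (2.26-fold lower), Nras 173 and 356, and Ksr1, a scaffold of the cascade, 7 and 36. Mapk3, a MAP kinase, had 44 counts in both libraries.

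Partners of the Igf2bp proteins and genes of N6-methyladenosine, an mRNA mark that these proteins have been reported to read, formed the last list. All 19 were compared, with 3 (15.8%) reaching 2-fold higher and 2 (10.5%) reaching 2-fold lower, against 12.5% and 16.7% of all genes, and a median of 0.25, or 0.08 after the length trend was removed. Hnrnpu and Syncrip, which stabilise mRNA together with Igf2bp1, had 719 and 238 counts (3.02-fold higher, 2.61 to 3.51) and 1126 and 430 (2.62-fold higher, 2.34 to 2.93). Ybx1 and Dhx9, of the same complex, had log2 ratios of -0.85 and -0.59. After the length trend was removed these were -0.37 and -0.74, and Hnrnpu and Syncrip were at 1.38 and 1.17. The mRNAs of this complex thus lay on both sides, and its proteins were not measured. Wtap, of the methylating complex, had 957 and 376, and Mettl3, its catalytic subunit, 110 and 64 (1.72-fold higher, 1.25 to 2.38), whereas Mettl14, the partner of Mettl3, had 21 and 87 (4.14-fold lower, 2.55 to 7.03). Fto, a demethylase, had 23 and 63 (2.74-fold lower, 1.68 to 4.63).

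**Figure D5:**
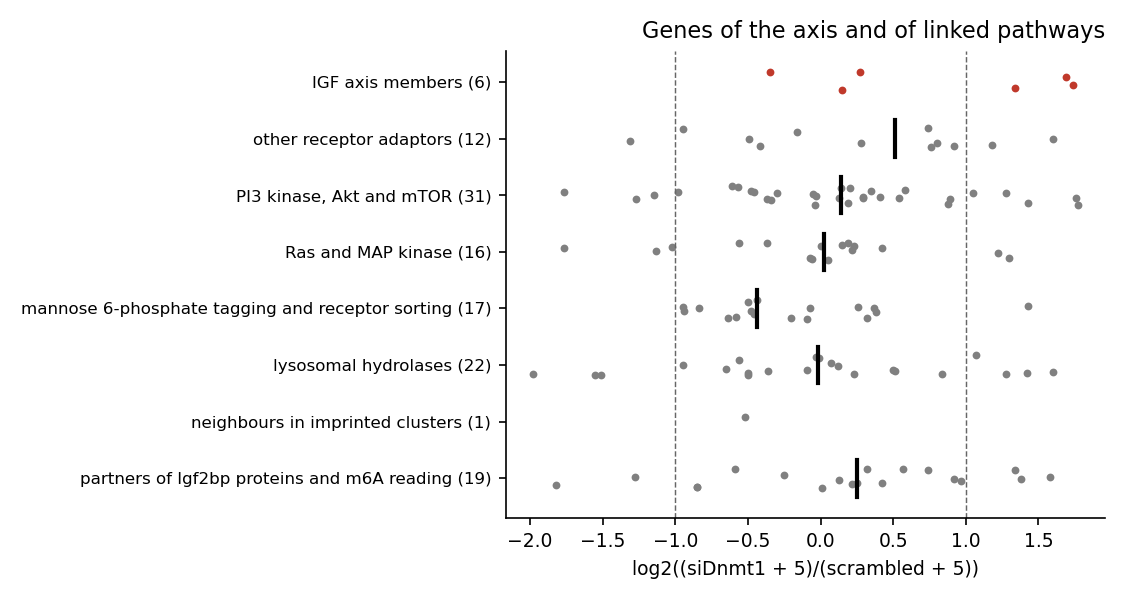
Log2 ratio of siDnmt1 over scrambled for each compared gene of the axis (red) and of the linked lists (grey), with the number of genes compared in brackets, dashed lines at 2-fold and a black bar at the median of each linked list with more than 4 compared genes. The medians of the linked lists lie between -0.44 and 0.51, and most lists have genes on both sides.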

How the data were processed

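The authors deposited 1 table of counts per gene, with 1 column per library. It is described as DESeq2-normalised. Named without versions or roles, per the submitters' processing notes, are HISAT2, Trim Galore, DESeq2 and HTSeq and the build mm9. Annotation, strand setting and the handling of multiply mapped reads: not given in the sources used here. Size factors recomputed with DESeq2 were 1 for both columns, which a normalised table would also give, so they cannot show whether the values were scaled. Because 0 whole numbers from 1 to 59 were skipped, the values were used as counts.

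With 1 library per group edgeR's quasi-likelihood test could not be fitted. Log2 ratios used a pseudocount of 5, and genes whose mean reached 20 counts were compared at 2-fold. Fold intervals are Clopper-Pearson, levels carry exact Poisson intervals, and ratios of ratios carry exact conditional intervals, all at 95%. Lengths came from the longest protein-coding GENCODE M21 transcript, or the longest of any kind, for 99.4% of compared genes. GENCODE M21 is on GRCm38, not mm9. The length trend was a lowess curve of span 0.3.

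The genes and lists were chosen with earlier results of these data known. Named were Dnmt1, the 10 genes, the imprinted neighbours, the 3 genes nearest to Igf2r and the 2 highest and 2 lowest of each other list at a mean of at least 20. Some genes that this rule takes are left out here. Other genes were named after their values were seen, as were the paired ratios, length classes, promoter letters and overlap checks. The size rule and intervals were tested on simulated counts that varied by counting error alone. Variation between libraries and from PCR was not simulated, so this gives no rate of false calls in these data. Other settings were a pseudocount of 1 or 20, a mean of 100 counts or no filter, 4 scalings, trends on mean count and length, and 4-fold. Software was DESeq2 1.42.0 and edgeR 4.0.16 in R 4.3.3, and scipy 1.17.1, statsmodels 0.14.6, pandas 2.3.3 and numpy 2.4.6 in Python 3.11.15.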

Additional observations from a re-analysis of the deposited data

How the results depend on the processing

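The log2 ratio of Igf2r, 1.74 as reported, was 1.68 at equal total counts, 1.84 at equal totals without Rn45s, 1.54 with the length trend removed and 1.58 with the mean count trend removed. Igf2bp2 ranged from 1.26 to 1.43 and Insr from 1.13 to 1.97 over their settings. With a 4-fold threshold on the log2 ratio with its pseudocount of 5, which lowers the plain folds of low counts, 0 genes of the axis and 0 of each linked list were past it, against 193 higher and 330 lower among all genes (911 and 1221 at 2-fold). Without the filter on low counts these were 1682 and 2122, 1 gene of the axis (Igf1r) was at least 2-fold lower, and 1 ligand or binding protein, 5 adaptors and 1 imprinted neighbour were past 2-fold (0, 3 and 0 with it). At a mean of 100 counts, 2 genes of the axis in place of 3 (Insr was no longer compared), 395 and 482 of all genes, 1 adaptor, 5 genes of the PI3 kinase branch (8 as reported), 3 of the Ras branch (5), 0 of the sorting list (1), 2 hydrolases (7) and 3 Igf2bp partners (5) were past it. A pseudocount of 20 gave 3 genes of the Ras branch and 4 hydrolases, and equal total counts gave 3 genes of the sorting list. The constructions with fewer or more genes tested account for the changes with the filter; for the others the cause was not tested. No gene past 2-fold that the naming rule took changed direction under a setting. The other genes named here were not followed singly over the settings. No paired analysis was possible because each group had 1 library, and no library could be left out. Depth limits Igf1r, Irs1, Irs2 and Igf2, each with at most 18 counts.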
